A study of Mus musculus with 79 samples.

Results

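Mouse embryonic stem cells (ESCs) without the DNA methyltransferases Dnmt1, Dnmt3a and Dnmt3b were followed from the undifferentiated state at day 0 (ESC D0) to embryoid bodies at day 8 (EB D8). Embryoid bodies are floating aggregates in which ESCs form derivatives of all germ layers, early blood among them. The triple knockout, labelled DNMT1/3a/3b_KO and called DNMT KO here, had 3 libraries at each of these conditions, chosen by their labels, which makes 6 of the 79 libraries of the series. All lines were held in 2i/LIF, a medium for naive ESCs, before differentiation. The parental line, DNMT WT, carries none of these deletions and had 2 libraries at ESC D0 and 3 at EB D8. The full series holds 4 lines at 7 conditions, and the parental line of a TET1/2/3_KO line, TET WT, served as another unedited line. Each genotype is 1 cell line, so an effect of the knockout cannot be told apart from anything else that sets this line off. Nothing in the labels says that the libraries of a group came from separate cultures, so the p-values measure the spread between these libraries, which may be technical. Of 35230 genes in the deposited table, 15267 had at least 1 RPKM (reads per kilobase of gene and per M reads of the library) in at least 2 of the 79 libraries and were tested.

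Dnmt3a and Dnmt3b place new methyl groups on cytosines that stand before guanines (CG sites), and Dnmt1 copies the pattern to the new strand at replication. In the embryo this methylation is low in the naive epiblast and is laid down around implantation, when germ cell genes are shut and imprints are kept through it. ESCs tolerate the loss of all 3 enzymes, and mouse ESCs without methylation are known to differentiate poorly.

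The libraries were first held against their labels. Dnmt1 was at 4.37, 3.85 and 3.63 RPKM in DNMT KO ESCs against 53 and 51.7 in DNMT WT ESCs, and at 5.82, 5.31 and 4.71 RPKM in DNMT KO EB D8 against 39.8, 39.4 and 40.0 in DNMT WT. Dnmt3a stood at 0.340 to 0.426 RPKM in DNMT KO ESCs and 2.19 to 2.29 at EB D8, below the 1.63 to 1.87 and 12.3 to 13.2 of DNMT WT. Dnmt3b stood at 3.03 to 3.96 and 12 to 13.1 RPKM, below 25.4 to 25.7 and 24 to 24.8. All 3 targeted genes were thus lower in every knockout library than in every parental library of the same condition. No source used here gives the removed exons. The knockout ESCs carried the ESC markers Nanog (488 to 504 RPKM) and Pou5f1 (442 to 467), beside 436 to 471 and 487 to 497 in DNMT WT. Depth, recovered from the deposited values, was 9.74 to 12 M reads in DNMT KO ESCs and 11.1 to 11.5 M in EB D8, and replicates correlated at 0.992 or above across genes. The share of reads from mitochondrial genes was 0.472 to 0.551% in DNMT KO ESCs and 1.09 to 1.26% at EB D8, against 0.706 to 0.869% and 1.03 to 1.06% in DNMT WT, and its part in the results below was not tested.

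The knockout cells left the ESC state in part. Between ESC D0 and EB D8, 2571 genes rose and 1057 fell in DNMT KO by the criterion used throughout: an adjusted p under 0.05 in limma, and a change of 1 or more log2 units either way on the log2(RPKM + 0.5) scale. These are 16.8% and 6.92% of the genes tested, 23.8% in all. In DNMT WT 3552 rose (23.3%) and 2198 fell (14.4%), 37.7% in all. Of the knockout's calls 70.9% were rises. With each library centred on its median the split was 1901 rises and 1591 falls, and with quantile normalization 1780 and 1493, which made 54.4% rises under both. These scalings moved the median change of all genes by -0.26 and -0.17 and turned no call. The 3 and 3 knockout libraries did not overlap for 73.4% of all genes, so that lack of overlap by itself sets few genes apart.

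Most of what the knockout changed, the parental line changed too. Of the 2571 rises, 1892 were also called in DNMT WT (73.6% of the knockout's list, 53.3% of the parental list). Of the 1057 falls, 882 were shared (83.4% and 40.1%). Genes that rose in DNMT WT had a median change of 1.79 there and 1.07 in DNMT KO, where 96.3% had the same sign. Genes that fell in DNMT WT had medians of -1.67 and -0.79, with 87.4% of one sign. These shares are descriptions of lists picked in the parental line. The difference of the responses, DNMT KO change minus DNMT WT change, was tested in the same fit and was called for 3130 genes (20.5%), 1644 positive (10.8%) and 1486 negative (9.73%). It went against the parental change for 1340 of the genes that rose in DNMT WT (37.7%) and for 1009 of those that fell (45.9%). A change called in one line and opposite in the other was rare, with 5 parental rises called as falls and 56 parental falls called as rises in DNMT KO. Conversely 366 rises and 61 falls of the knockout were not called in DNMT WT and had a difference called in the knockout's direction.

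**Figure D1:**
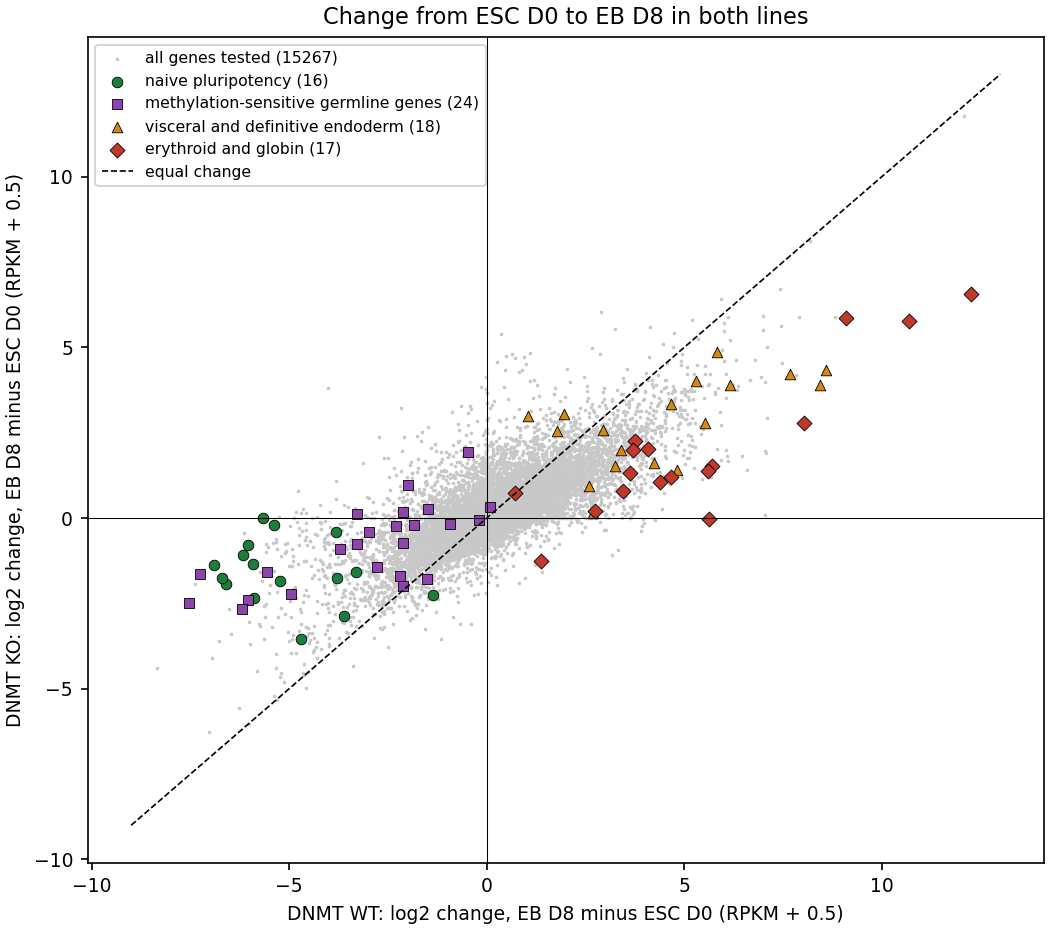
Log2 change from ESC D0 to EB D8 in DNMT WT (x axis) and DNMT KO (y axis), both on the log2(RPKM + 0.5) scale, 1 point for each of 15267 genes, with members of 4 gene lists coloured and a dashed line where both changes are equal. Most naive pluripotency and germline genes lie above the line on its falling side, while most erythroid and endoderm genes lie below it on its rising side.

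As a whole profile, the day 8 knockout bodies lay closest to the knockout's own bodies of day 6. The distance between group means, as the root mean square of log2 differences over 15267 genes, was 0.332 to DNMT KO EB D6, 0.464 to EB D4, 0.706 to EB D2 and 1.06 to ESC D0. Single libraries of DNMT KO EB D8 differed from each other by at most 0.253. Among the DNMT WT groups the nearest was EB D4 at 0.699, followed by EB D2 at 0.725, EB D6 at 0.844 and EB D8 at 0.948. Single libraries of DNMT KO EB D8 stood 0.706 to 0.719 from the DNMT WT EB D4 mean and 0.733 to 0.747 from that of EB D2, so the order of these neighbours was the same in all 3 libraries. The ESCs of both lines were 0.301 apart. DNMT KO ESCs lay 1.54 from DNMT WT EB D8 and 1.06 from their own EB D8.

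Naive pluripotency genes fell in the knockout, but with the exception of Tbx3 their mean levels stayed above those of the parental bodies. Of 16 such genes, 12 fell and 0 rose in DNMT KO, with a list median of -1.67 beside 0.11 for all genes tested. In this list and those below, a count of 0 from limma was at most 1 at an unadjusted p under 0.05 and 0 by voom, a count-based variant of limma, unless given. In DNMT WT all 16 fell, with a median of -5.52. The difference was called positive for 14 of the 16. Nanog, a core factor of the naive state, was at 501, 504 and 488 RPKM in DNMT KO ESCs and at 129.6, 132 and 127 at EB D8, while DNMT WT went from 436 and 471 to 4.08, 3.73 and 4.71. The knockout's bodies thus lay below all ESC libraries and above all parental bodies. The log2 change was -1.94 (SE 0.07, adjusted p = 1.19e-15) in DNMT KO and -6.61 (SE 0.08) in DNMT WT, a difference of 4.67 (SE 0.10, adjusted p = 1.74e-17).

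The deepest fall on the naive list was that of Tfcp2l1, a transcription factor of the naive network, from 149, 156 and 159 RPKM to 13, 12.3 and 12.8 (change -3.55, SE 0.08). Klf4 and Tcl1 fell by 2.87 and 2.35 on the log2 scale, and Tbx3 by 2.25. At the other end stood Dppa5a, which encodes an RNA-binding protein of pluripotent cells. It was at 1061, 1112 and 974 RPKM in DNMT KO ESCs and at 1015, 1027 and 1075 in its bodies, groups that overlap, against 16, 19.5 and 21.7 in DNMT WT EB D8 (difference 5.64, SE 0.16, adjusted p = 4.39e-16). Esrrb, an orphan nuclear receptor, was at 85.6, 87.7 and 91.0 RPKM in DNMT KO ESCs and still at 50.8, 51.5 and 49.9 at EB D8, a change of -0.79 that missed the criterion. In DNMT WT it reached 0.734, 0.774 and 0.860 (difference 5.25, SE 0.13). Zfp42, known as Rex1, differed by 5.54. After centring, Esrrb was called as lower in DNMT KO (-1.05).

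General pluripotency genes moved in different ways in the 2 lines. Of 10, 0 fell (3 at an unadjusted p under 0.05 whatever the size) and 3 rose in DNMT KO, with a median of -0.10 that became 0.08 under quantile normalization, while 8 fell in DNMT WT (median -3.66). The share called in DNMT KO was thus near the 23.8% of all genes. The difference was positive for 7. Pou5f1, which encodes the pluripotency factor OCT4, was at 462, 467 and 442 RPKM in DNMT KO ESCs and 258, 265 and 265 in the bodies, with no overlap. Its change of -0.80 (SE 0.07) missed the size criterion and reached -1.06 after centring. In DNMT WT it fell to 17.2, 17.6 and 18.5 RPKM (difference 3.96, SE 0.10, adjusted p = 1.60e-16). Utf1, a chromatin-bound factor of pluripotent cells, rose in DNMT KO from 14.6, 11.8 and 15 to 124, 129 and 144 RPKM and fell in DNMT WT to 4.08, 5.58 and 4.78 (difference 5.40, SE 0.20). Lin28a, an inhibitor of let-7 microRNA processing, rose in both lines, by 2.81 in DNMT KO and 2.11 in DNMT WT.

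Formative and primed genes, which mark the epiblast after implantation, were high in the knockout bodies. Of 13 members, 10 rose and 0 fell in DNMT KO (median 2.56), while 6 rose and 5 fell in DNMT WT (median 0.53, or 0.19 without DNMT WT ESC D0 replicate 1 and 0.87 without replicate 2). The difference was called positive for 10 and negative for 0. Otx2, a transcription factor of the post-implantation epiblast, rose from 0.846, 1.22 and 1.28 to 26, 22.7 and 25.5 RPKM, above the 4.11, 4.04 and 4.71 of DNMT WT EB D8 (difference 1.86, SE 0.26). Fgf5, a growth factor of the same stage, had no read in the 3 knockout ESC libraries and 9.02, 8.13 and 9.21 RPKM in the bodies. Against a floor of 3 reads per library that is at least 71.4-fold higher. The authors' values write a count of 0 as if 0.9 reads had been seen, so the fitted log2 change of such a gene (4.12 for Fgf5) depends on that and on the added 0.5 RPKM, here and below, and is no bound. Dnmt3l, the cofactor of Dnmt3a and Dnmt3b that has no enzyme activity of its own, had the largest positive difference of the genes named. It rose from 4.81, 5.15 and 4.11 to 73.3, 70.6 and 73.9 RPKM in DNMT KO and fell from 25.8 and 26.8 to 1.2, 1.06 and 1.23 in DNMT WT (difference 7.83, SE 0.20, adjusted p = 1.45e-16). These 3 genes had higher means in DNMT KO before day 8. Mean Fgf5 was 29.4 RPKM at day 2 and 8.79 at day 8, and mean Dnmt3l 167 and 72.6. Mean Otx2 was 33.4 RPKM at day 4 and 24.8 at day 8. Lef1, also on the list, had its highest mean at day 8 (6.39 RPKM).

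**Figure D2:**
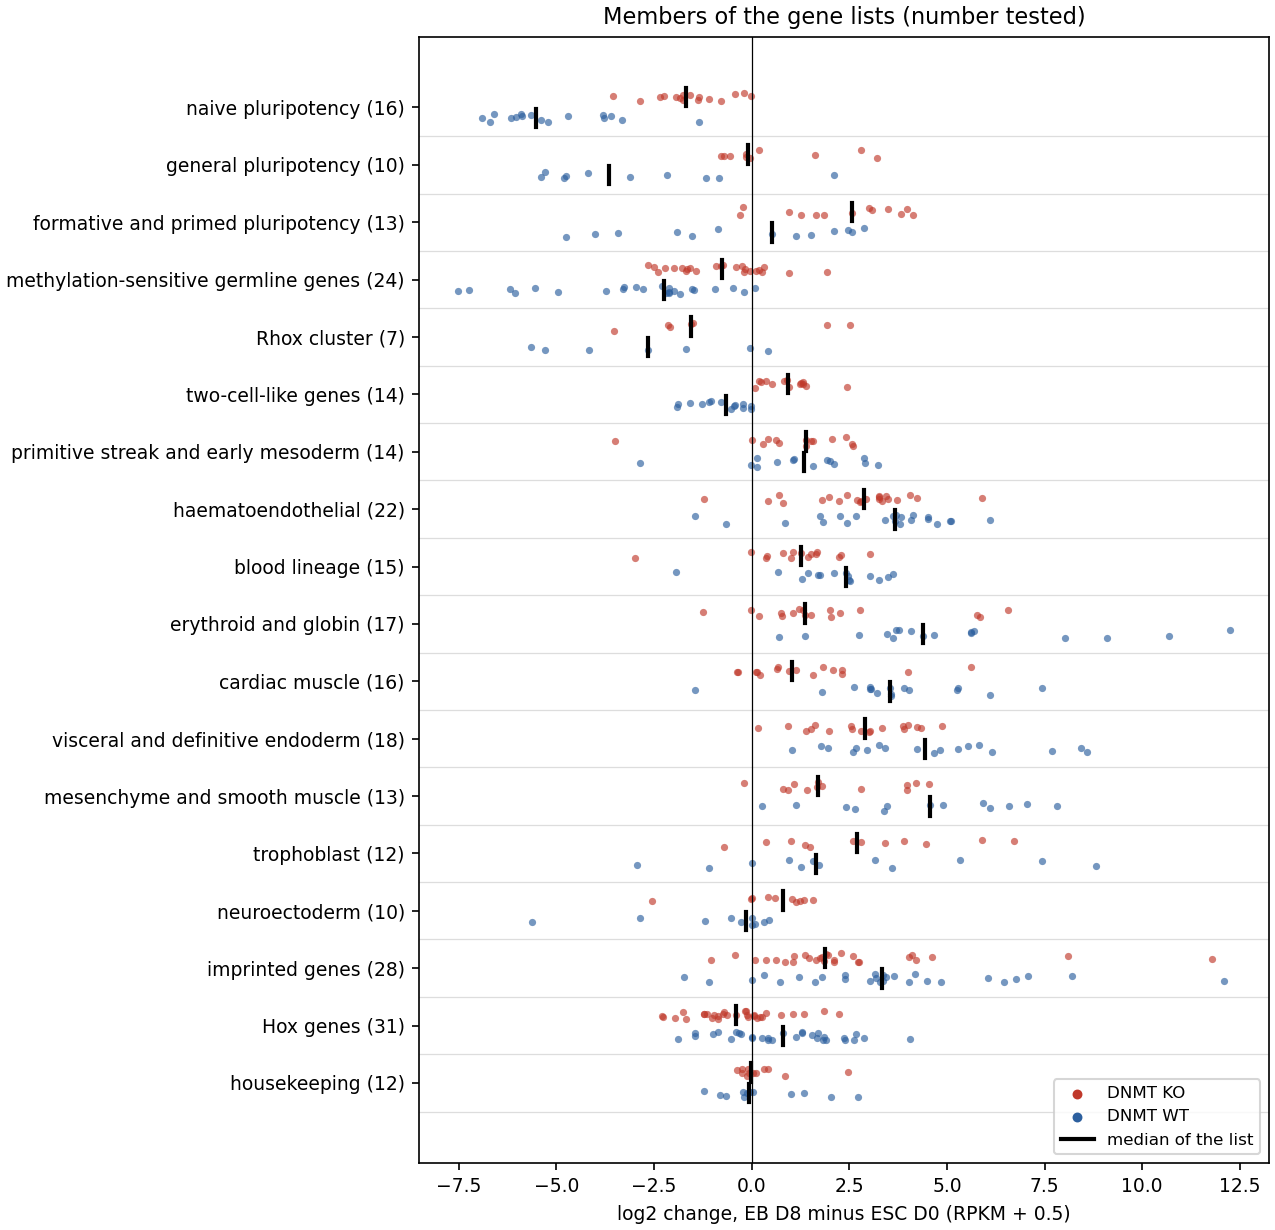
Log2 change from ESC D0 to EB D8 on the log2(RPKM + 0.5) scale for the tested members of 18 gene lists, with DNMT KO in red, DNMT WT in blue, 1 point per gene and a black bar at each list's median. The naive list has medians of -1.67 and -5.52, the erythroid list 1.37 and 4.38, and the haematoendothelial list 2.88 and 3.68.

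Genes of the germ line that are known to be silenced through promoter methylation were in most cases still expressed in the knockout bodies. Of the 24 tested, 20 had a mean of at least 1 RPKM there, against 2 in DNMT WT bodies. Brdt, a testis bromodomain protein, was an exception at 0.289 RPKM, beside 0.315 in DNMT WT, and Sycp2, Tdrd1 and Tex101 also lay under 1 RPKM. The promoters of a few are shown because these CG-rich stretches are where that methylation is placed in normal cells. Each is the stretch of 250 bases before the RefSeq gene start (RefSeq, build GRCm38.p6), 5′ to 3′ on the gene's strand, with CG sites in capitals. Below Dazl (chr17:50293621-50293870, minus strand), Hormad1 (chr3:95559427-95559676, plus strand), Fkbp6 (chr5:135350045-135350294, minus strand) and Sohlh2 (chr3:55181794-55182043, plus strand) stand Hbb-y (chr7:103853208-103853457, minus strand), an embryonic globin, and Afp (chr5:90490464-90490713, plus strand), an endoderm gene, for contrast.
Dazl: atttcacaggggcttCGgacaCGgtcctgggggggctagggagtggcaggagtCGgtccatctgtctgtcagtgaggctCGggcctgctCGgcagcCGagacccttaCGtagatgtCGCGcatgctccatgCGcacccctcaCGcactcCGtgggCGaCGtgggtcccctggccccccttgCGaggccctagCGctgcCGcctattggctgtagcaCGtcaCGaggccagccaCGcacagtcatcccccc
Hormad1: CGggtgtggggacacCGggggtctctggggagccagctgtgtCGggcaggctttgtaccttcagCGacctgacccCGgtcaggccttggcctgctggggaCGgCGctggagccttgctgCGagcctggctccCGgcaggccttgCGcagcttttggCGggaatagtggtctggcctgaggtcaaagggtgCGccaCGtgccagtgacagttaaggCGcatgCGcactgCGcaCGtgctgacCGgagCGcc
Fkbp6: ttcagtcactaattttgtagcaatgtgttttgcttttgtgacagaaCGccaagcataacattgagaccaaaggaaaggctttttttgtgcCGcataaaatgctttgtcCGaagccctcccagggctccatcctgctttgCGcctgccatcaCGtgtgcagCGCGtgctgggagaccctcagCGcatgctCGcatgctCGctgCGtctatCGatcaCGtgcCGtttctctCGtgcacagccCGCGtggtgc
Sohlh2: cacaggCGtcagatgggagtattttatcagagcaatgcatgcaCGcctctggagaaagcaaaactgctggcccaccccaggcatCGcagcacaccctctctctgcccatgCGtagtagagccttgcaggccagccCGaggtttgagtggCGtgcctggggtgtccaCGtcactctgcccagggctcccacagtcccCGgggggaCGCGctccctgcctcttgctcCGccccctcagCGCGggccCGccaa
Hbb-y: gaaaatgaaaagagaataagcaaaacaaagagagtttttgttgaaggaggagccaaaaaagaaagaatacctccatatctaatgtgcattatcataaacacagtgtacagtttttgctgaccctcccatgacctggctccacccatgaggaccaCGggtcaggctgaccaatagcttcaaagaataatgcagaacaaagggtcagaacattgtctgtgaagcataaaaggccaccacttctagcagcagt
Afp: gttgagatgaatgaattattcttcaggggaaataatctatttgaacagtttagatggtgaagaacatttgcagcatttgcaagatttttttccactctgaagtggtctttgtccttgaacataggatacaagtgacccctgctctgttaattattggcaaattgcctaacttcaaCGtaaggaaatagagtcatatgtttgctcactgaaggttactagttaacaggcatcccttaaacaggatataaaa
The 4 germ cell stretches hold 20, 19, 17 and 14 CG sites in that order, and the globin and the endoderm stretch 1 each. The E-box CACGTG, which reads the same on both strands and contains a CG, occurs in pairs in the Hormad1 and Fkbp6 stretches and not in those of Dazl, Sohlh2, Hbb-y or Afp. In windows that run from 250 bases before to 50 after the start, CACGTG was found in 13 of the 22 germline list members with a window (59.1%), against 1144 of 11174 windows of tested genes (10.2%) and 2349 of 32851 windows of the RefSeq table (7.15%). The motif TCCCGC, searched on both strands, was in 11 of the 22 (50%) against 35.7% and 20%, and AGATAA in 2 (9.09%) against 6.38% and 11.2%. The germline windows held a median of 21 CG sites, beside 20 for all tested genes with a window. These are letter matches and no evidence of binding. The share among tested genes rests on windows for 73.2% of them, under the 80% set for comparing gene classes. Classes by called change are therefore not compared, and the germline share is a description only. CACGTG was in 0 windows of the other lists at 80% or above, namely targeted genes, streak, heart, neuroectoderm and trophoblast (3 to 14 windows each). Among lists under 80% it was in 3 of 10 windows of p53 targets (30%) and 4 of 17 of Hox genes (23.5%). Each remaining list had it in at most 2 windows.

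Of 24 germline genes tested, 10 fell and 1 rose in DNMT KO (median -0.76), while 20 fell in DNMT WT (median -2.24). The difference was called positive for 18 and negative for 0. With TET WT in place of DNMT WT these counts were 8 and 2. Dazl, an RNA-binding regulator of germ cell development, was at 111, 115 and 115 RPKM in DNMT KO ESCs and 21.4, 22.1 and 20.3 at EB D8. In DNMT WT it went from 40.6 and 41.1 to 0.124, 0.0943 and 0.154, so every knockout body library stood above every parental one. TET WT, the other unedited line, had less of it to begin with, 5.82 RPKM (SD 0.251, n = 3) in ESCs and 0.485 (SD 0.0691, n = 3) at EB D8. The difference of response was 3.66 (SE 0.12, adjusted p = 2.89e-15), and 0.29 with TET WT in place of DNMT WT, which missed the criterion. Fkbp6, a co-chaperone of the piRNA pathway, fell from 63.6, 59.7 and 62.5 to 8.96, 8.59 and 10.7 RPKM, against 0.162, 0.0370 and 0.0478 in DNMT WT EB D8 (difference 3.53, SE 0.30). Hormad1, a protein of the meiotic chromosome axis, fell from a range of 38.7 to 39.5 to one of 12.2 to 13.9 RPKM (difference 3.98, SE 0.15). The ribosomal protein copy Rpl10l and the testis tubulin Tuba3a fell by 2.50 and 1.65 on the log2 scale in DNMT KO, and differed from DNMT WT by 5.03 and 5.60.

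Other germ cell genes made no called change or rose in the knockout, and some fell. Sohlh2, a transcription factor of germ cells that is not on the list, was at 34.3, 34.8 and 33.6 RPKM in DNMT KO ESCs and 34.9, 34.6 and 34.9 at EB D8, while in DNMT WT it went from 22.7 and 20.8 to 0.0359, 0.0914 and 0.106 (difference 5.29, SE 0.18, adjusted p = 6.35e-15). Taf7l, a germ cell subunit of the general transcription factor TFIID, was the list member that rose, from 1.184, 0.777 and 0.800 RPKM to 4.94, 4.63 and 5.05 (change 1.93, SE 0.17). Of the testis genes outside the list, Rbmxl2 had a change of -0.44 and a difference of 5.71, and Rpl39l fell by 1.92 on the log2 scale and had a difference of 5.47. Of the 7 tested Rhox genes, an X-linked homeobox cluster of the reproductive tissues, 5 fell and 2 rose in DNMT KO, and the difference was positive for 6. With TET WT in place of DNMT WT it was positive for 2 and negative for 3. Rhox13 fell from 54.4, 50.2 and 56.4 to 3.81, 4.19 and 4.48 RPKM, and Rhox6 rose from 2.47, 2.44 and 3.65 to 15.5, 19.6 and 20.5. Several Rhox genes and Tuba3a have close copies that could share reads, so their single values are uncertain.

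Cells of the 2-cell-like state express a set of genes otherwise seen in the early embryo. Of 14 tested, 6 rose and 0 fell in DNMT KO (median 0.93), while 6 fell in DNMT WT (median -0.66), and the difference was positive for 10, or for 6 with TET WT in place of DNMT WT. Tmem92 had at most 1 read in a knockout ESC library and reached 2.06, 2.75 and 2.55 RPKM (change 2.44, SE 0.13). Zscan4d, which has close copies, had a change of 1.31 and a difference of 3.21. The levels were low, and the number of rises was 4 after centring, 1 after quantile normalization and 12 by voom.

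Endothelial genes came up in the knockout bodies. Of 22 haematoendothelial genes, 18 rose and 1 fell in DNMT KO (median 2.88, or 3.10 with the 6 genes that had no ESC read at their lower bound), and 19 rose in DNMT WT (median 3.68). The difference was negative for 7 (3 by voom) and positive for 2. Cdh5, the vascular cadherin of endothelial junctions, had no read in any knockout ESC library and 30.8, 31.0 and 30.0 RPKM at EB D8, at least 418-fold more than the floor. DNMT WT bodies had 35.3, 35.8 and 34.7 RPKM, just above the knockout's range, and the difference of response was -0.20 (SE 0.15, adjusted p = 0.245). Kdr, the VEGF receptor of endothelial and blood precursors, rose from 0.193, 0.125 and 0.314 to 13.1, 12.9 and 12.2 RPKM, against 23.7, 23.2 and 24.2 in DNMT WT. Its difference of -0.85 (SE 0.16) missed the size criterion. Sox18 rose by 4.04 and was near the parental level (difference -0.48). Its mean in DNMT KO was already 17.3 RPKM at day 2, when that of Cdh5 was 0.479, and 14.5 at day 8. In bulk RNA, fewer cells of a type and less RNA per cell cannot be told apart, here and for each cell type below.

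Factors that link endothelium to blood differed among themselves. Tal1, the transcription factor that starts blood formation, had at most 1 read in a knockout ESC library and reached 6.12, 7.18 and 5.78 RPKM, against 17.8, 17.9 and 16.8 in DNMT WT (difference -1.40, SE 0.14, adjusted p = 2.92e-08, not called by voom at an adjusted p of 0.109). Lmo2, its partner, differed by -1.73. Tek, the angiopoietin receptor, differed by -1.97, with a change of 0.70 in DNMT KO that missed the criterion. Gata2, a factor of blood progenitors, rose from 0.416, 0.399 and 0.385 to 5.43, 5.73 and 6.32 RPKM, above the 3.62, 3.42 and 3.91 of DNMT WT (difference 0.54, under the size criterion). Etv2, which starts the endothelial and blood programme, rose from 1.19, 1.08 and 1.17 to 6.80, 7.61 and 7.496 RPKM, against 6.21, 6.32 and 6.88 in DNMT WT (difference 0.49, SE 0.38, adjusted p = 0.285). Its mean in DNMT KO was highest at day 2, at 11.5 RPKM. The member that fell was Pecam1, an adhesion molecule of endothelium and of naive ESCs, from 31.3, 30.0 and 30.6 to 13.1, 12.7 and 12.8 RPKM. It fell in DNMT WT as well (difference 0.22). Of 15 blood lineage genes, 9 rose and 1 fell in DNMT KO (median 1.26) and 13 rose in DNMT WT (median 2.41), with 8 negative differences and 1 positive. The fall was that of Kit, the stem cell factor receptor, from 53.3, 55.4 and 56.8 to 6.19, 6.73 and 6.54 RPKM. Kit fell in DNMT WT as well, from a mean of 48.9 to 12.4 RPKM (difference -1.05). Myb, a factor of definitive blood progenitors, had the positive difference, at 3.25, 2.82 and 2.92 RPKM in DNMT KO bodies against 0.687, 0.701 and 0.629 in DNMT WT (difference 1.63, SE 0.20). Its mean was already 3.30 RPKM in DNMT KO and 4.84 in DNMT WT at day 2, so the lines parted by its later fall in DNMT WT. Gfi1b, a repressor of erythroid and megakaryocyte cells, differed by -2.17. Csf1r, the receptor of macrophage growth factor, rose from at most 1 read in an ESC library to 1.31, 1.01 and 1.14 RPKM, against 2.57, 2.03 and 2.42 in DNMT WT (change 1.67, difference -0.74). Other leukocyte genes made no called change: Spi1 stood at 0.771, 1.10 and 0.316 RPKM in ESCs and 0.502, 0.931 and 0.615 in the bodies, while Vav1, Rac2 and Mpo had changes of 0.99, 0.80 and 0.40, under the size criterion. Ptprc had at most 5 reads in a library and was not tested.

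Red cell genes were switched on in the knockout but at a small part of the parental level. Of 17 erythroid and globin genes, 12 rose and 1 fell in DNMT KO (median 1.37, or 2.04 with 9 genes at their lower bound), and 16 rose in DNMT WT (median 4.38). The rises numbered 10 after centring, 8 after quantile normalization and 7 with a pseudocount of 1 RPKM. The difference was negative for 16 of 17. Hbb-bh1, the embryonic beta-like globin, had no read in knockout ESCs and 57.7, 64.3 and 57.4 RPKM in the bodies, at least 119-fold more than the floor. DNMT WT bodies held 3083, 3064 and 3034 RPKM (difference -5.69, SE 0.21, adjusted p = 1.99e-14). Hba-x, the embryonic alpha-like globin, reached 29.4, 34.4 and 30.8 RPKM against 955, 973 and 959, and Hbb-y 34.4, 45.3 and 29.9 against 335, 331 and 359. Hba-a2, which has a near-identical copy in Hba-a1, had a change of -0.01 in DNMT KO and a difference of -5.64.

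The factors above the globins were below the parental level as well. Gata1, the master regulator of red cells, was at 0.307, 0.126 and 0.0388 RPKM in DNMT KO ESCs and 1.11, 1.176 and 1.04 in the bodies, without overlap, against 10.5, 10.3 and 10.3 in DNMT WT (difference -2.31, SE 0.21). Its change of 1.31 was 0.81 under quantile normalization and then missed the criterion. Klf1, which acts with Gata1 on globin genes, was at 0.489, 0.201 and 0.124 RPKM and then at 0.885, 0.996 and 1.37. Its change of 1.05 lost its call without EB D8 replicate 3 (0.93), ESC D0 replicate 2 (just under 1.0) or ESC D0 replicate 3 (0.92), while its difference was -3.33. Nfe2, a partner in globin control, was the member that fell, from 3.50, 4.23 and 3.29 to 1.09, 1.59 and 1.08 RPKM, against a rise to 13.3, 12.4 and 11.9 in DNMT WT (difference -2.63, SE 0.21). Zfpm1, the cofactor of Gata1, was the highest of these, rising from 6.71, 5.54 and 5.88 to 25.4, 28.4 and 25.1 RPKM, against 74.0, 83.5 and 81.0 in DNMT WT (difference -2.05, SE 0.15).

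**Figure D3:**
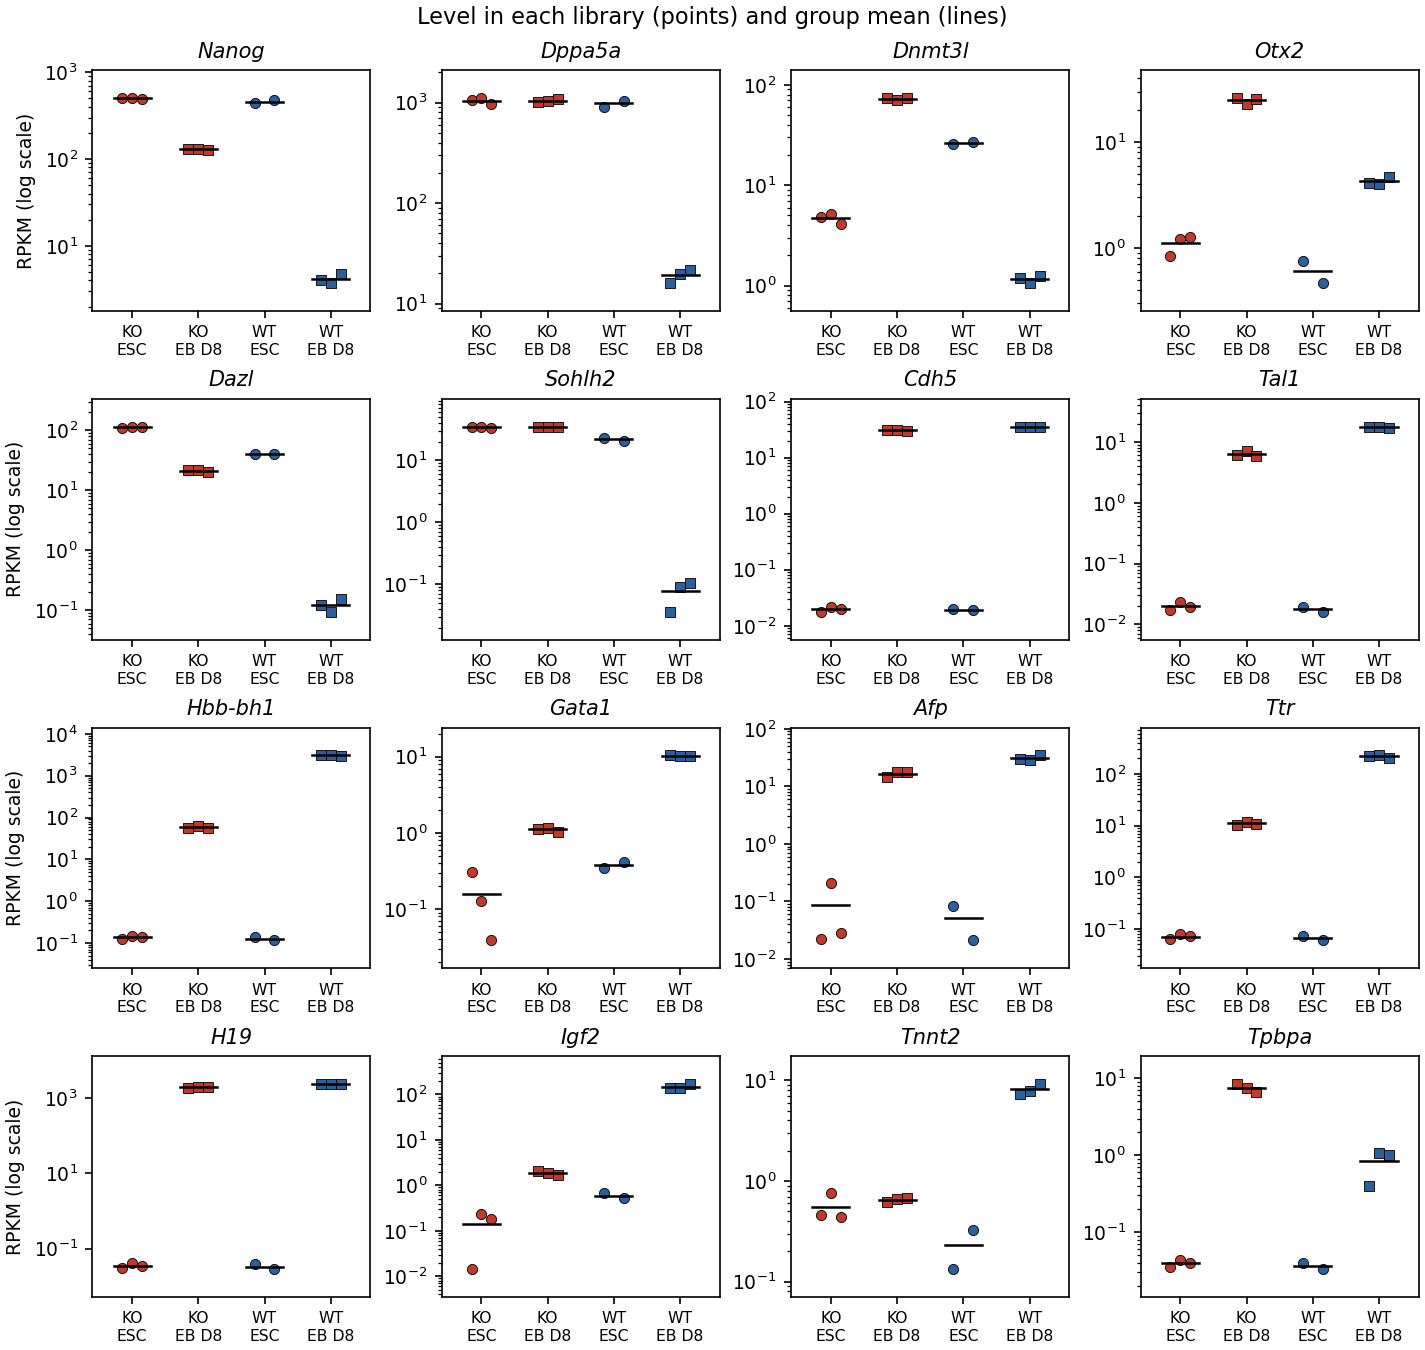
RPKM on a log axis for 16 genes, 1 panel each, in the libraries of DNMT KO ESC D0 and EB D8 and DNMT WT ESC D0 and EB D8, with 1 point per library and a line at each group mean. Nanog, Dppa5a, Dazl and Sohlh2 remain high in the knockout bodies, Cdh5 is near the parental level, and Hbb-bh1, Igf2 and Tnnt2 lie far below it.

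Endoderm genes rose widely. Of 18 visceral and definitive endoderm genes, 16 rose and 0 fell in DNMT KO (median 2.89, or 3.02 with 3 genes at their bound), and all 18 rose in DNMT WT (median 4.44). The difference was negative for 13 and positive for 2. Afp, the fetal serum protein of visceral endoderm, rose from 0.0222, 0.213 and 0.0281 to 14.5, 17.4 and 18.1 RPKM, against 29.8, 28.7 and 34.7 in DNMT WT (difference -0.96, which missed the size criterion). Ttr, a thyroid hormone carrier, had no ESC read and reached 10.3, 11.9 and 10.9 RPKM, at least 42.5-fold above the floor, against 217, 229 and 207 in DNMT WT (difference -4.26, SE 0.09). Rbp4, the retinol carrier, differed by -4.55. The positive differences were those of Trf, which encodes transferrin (1.96), and Cubn, an uptake receptor of the visceral endoderm (1.08). Neither was called by voom (1.11 and 0.89, adjusted p = 0.337 and 0.658), and with TET WT in place of DNMT WT that of Trf was 1.02 and that of Cubn turned to -1.70. Nepn, which encodes a small secreted protein with leucine-rich repeats and is not on the list, was at 69.4, 70.4 and 71.4 RPKM in DNMT WT bodies and at 0.0451, 0.0448 and 0.131 in those of DNMT KO (difference -6.96, SE 0.26). The gut hormone Pyy differed by -4.48. The small rise of Pyy in DNMT KO (1.19) was not called without EB D8 replicate 1 (0.88).

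Basement membrane genes rose and fell in both lines. Of 10, 5 rose and 2 fell in each, and the medians were 1.2 in DNMT KO and 1.21 in DNMT WT. No difference was called by limma on these values, 8 of the 10 differed at an unadjusted p under 0.05, and voom called 1. With TET WT in place of DNMT WT, 1 positive and 5 negative differences were called. Col4a1, a chain of type IV collagen, rose from 0.891, 1.02 and 0.874 to 77.2, 76.8 and 69.2 RPKM in DNMT KO and to 108, 102 and 100.1 in DNMT WT (difference -0.28, SE 0.19, adjusted p = 0.218). These genes are made by parietal endoderm, endothelium and other cells.

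Most cardiac genes changed less in the knockout than in the parental line. Of 16 cardiac genes, 8 rose and 0 fell in DNMT KO (median 1.04), and 15 rose in DNMT WT (median 3.55), with 14 negative differences and 1 positive. Of those that rose, 6 encode transcription factors. Hand2, a factor of the early heart, rose from 0.106, 0.131 and 0.0402 to 27.2, 30.7 and 28.2 RPKM, against 96.2, 101 and 102 in DNMT WT (difference -1.82, SE 0.17), and Gata4 rose by 4.01. Of 9 contractile genes, Myl7 and Actc1 rose, a share near the 16.8% of all genes, and whether factors and contractile genes differ was not tested. Tnnt2, cardiac troponin T, was at 0.461, 0.768 and 0.439 RPKM in ESCs and 0.617, 0.659 and 0.676 in the bodies, overlapping groups, against 7.35, 7.80 and 9.24 in DNMT WT EB D8 (difference -3.43, SE 0.22, adjusted p = 4.14e-11). Myh7, a heavy chain of cardiac myosin, had a change of -0.39, under the size criterion, and differed by -4.30. Actc1, cardiac actin, rose by 1.82 and differed by -4.27.

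Mesenchymal genes rose in part to parental levels. Of 13, 10 rose and 0 fell in DNMT KO (median 1.71, or 2.79 with 2 genes at their bound) and 12 rose in DNMT WT (median 4.57), with 8 negative differences. Twist1, a transcription factor of mesoderm, reached 19, 21 and 20.3 RPKM in DNMT KO and 12.5, 16.6 and 16.1 in DNMT WT (difference 0.52, SE 0.28, adjusted p = 0.117). Tagln, an actin-binding protein of smooth muscle, reached 11.4, 12.2 and 13.3 against 15.1, 10.4 and 12.3, overlapping groups (difference -0.03, SE 0.29). Acta2, smooth muscle actin, was far below the parental level, rising from at most 1 read in an ESC library to 10.2, 7.95 and 10.6 RPKM against 120.0, 118 and 129.9 (difference -3.63, SE 0.13). Collagens were far apart too: Col1a1 rose from 0.405, 0.188 and 0.317 to 10.6, 12.7 and 13.2 RPKM in DNMT KO and to 122, 119.5 and 118 in DNMT WT (difference -3.06, SE 0.21), and Col3a1 differed by -5.16.

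Genes of the primitive streak, through which mesoderm and endoderm leave the epiblast, showed 8 rises and 1 fall among 14 tested in DNMT KO (median 1.39) and a median of 1.33 in DNMT WT. The fall was that of the organizer gene Gsc, from 14.9, 14.8 and 12.2 to 0.783, 0.919 and 0.620 RPKM, which fell in DNMT WT as well. Differences were called for 2, Eomes (1.02) and Cer1 (-1.38). Eomes, a T-box factor of the streak and of trophoblast, reached 9.06, 8.11 and 10.3 RPKM in DNMT KO against 2.86, 2.88 and 3.19, but its difference lost its call without DNMT KO EB D8 replicate 3 (0.94), DNMT KO ESC D0 replicate 1 (0.99), DNMT WT EB D8 replicate 1 (just under 1.0) or DNMT WT ESC D0 replicate 2 (0.80). That of Cer1, a Nodal antagonist, was -0.95 without DNMT KO EB D8 replicate 2 and 0.76 with TET WT in place of DNMT WT.

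Neuroectoderm, the remaining germ layer, was of mixed level. Of 10 tested neuroectoderm genes, 5 rose and 1 fell in DNMT KO (median 0.81) and 0 rose in DNMT WT (2 at an unadjusted p under 0.05, 1 by voom; median -0.14, between -0.24 and -0.05 without 1 or the other DNMT WT ESC library), with 6 positive differences. The rises numbered 2 after centring and 1 after quantile normalization or with a pseudocount of 1 RPKM. Mean levels in the knockout bodies ran from 0.0327 RPKM for Olig2 to 12.01 for Nes, 15.7 for Stmn2 and 17.9 for Tubb3. Sox1, an early neural plate factor, was at 0.550, 0.765 and 0.782 RPKM in ESCs and 2.93, 2.73 and 3.59 in the bodies, against 0.176, 0.253 and 0.0868 in DNMT WT (difference 2.79, SE 0.18). Tubb3, a neuronal tubulin that these ESCs express, fell in both lines, from 104 to 114 down to 17.0 to 19.1 RPKM in DNMT KO and to 1.31 to 2.17 in DNMT WT. A set of 8 further list members, Neurog2 among them, did not pass the filter.

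Trophoblast markers are of interest because loss of methylation is known to ease entry into that lineage. Of 12 tested, 9 rose and 0 fell in DNMT KO (median 2.70) and 8 rose in DNMT WT (median 1.65), with 5 positive and 2 negative differences. Of the 9 rises, 7 were also called in DNMT WT, so the count does not by itself mark trophoblast. Mean Cdx2, also on this list, was 2.51 RPKM in knockout bodies, below the 14.5 of DNMT WT. Tpbpa, a secreted protein of the placental spongiotrophoblast, had no read in knockout ESCs and 8.46, 7.44 and 6.67 RPKM at EB D8, at least 52.1-fold above the floor, against 0.398, 1.08 and 1.02 in DNMT WT (difference 2.62, SE 0.24, adjusted p = 1.16e-08). Hand1, shared by trophoblast and lateral mesoderm, had 1 ESC read at most and rose to 31.4, 30.6 and 33.0 RPKM, against 243, 264 and 224 (difference -2.93, SE 0.18). By summed reads its ratio of EB D8 to ESC D0 in the knockout was 2047, with a 95% counting interval of 367 to 80892. Krt18, an epithelial keratin, rose by 6.71, among the largest rises. Elf5, a defining marker of trophoblast stem cells, had at most 16 reads in a library and was not tested.

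Imprinted genes, whose parental copies are told apart by methylation, mostly rose. Of 28 tested, 22 rose and 1 fell in DNMT KO (median 1.88), and 23 rose in DNMT WT (median 3.33), with 13 negative differences and 1 positive. H19 and Igf2 share a control region that is methylated on the paternal copy in normal cells, and these bulk counts do not separate the copies. H19, a long noncoding RNA, had at most 1 read in a knockout ESC library and 1818, 1904 and 1948 RPKM in the bodies, against 2332, 2343 and 2298 in DNMT WT. Its summed reads gave a ratio of 150470 (95% counting interval 27005 to 5943100), the largest fitted rise of the named genes (11.79), and a difference of -0.30 (SE 0.08). Igf2, the growth factor next to it, was at 2.07, 1.83 and 1.72 RPKM in knockout bodies and at 137, 136 and 171 in parental ones (difference -5.18, SE 0.17, adjusted p = 2.67e-15). H19 thus stood near the parental level, and Igf2 far below it.

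Genes of other imprinted domains stood near, below or in some cases above the parental level. Peg10, a gene derived from a retrotransposon, rose from 1.21, 1.05 and 1.09 to 438, 422 and 480.2 RPKM, close to the 518, 514 and 509 of DNMT WT (difference -0.08, SE 0.09, adjusted p = 0.434). Its neighbour Sgce, a sarcoglycan, reached 2.43, 2.85 and 2.71 RPKM against 6.40, 7.003 and 6.53 (difference -1.06). By voom the difference of Sgce was 0.11 (adjusted p = 0.9) and was not called. Dlk1, a Notch-related ligand expressed from the paternal copy, was at 0.470, 0.544 and 0.468 RPKM in knockout ESCs and at 2.95, 3.31 and 2.73 in the bodies, against 49.4, 46.7 and 57.0 in DNMT WT (difference -4.66, SE 0.14). Meg3, the noncoding RNA beside it, was also below the parental bodies, at 25.9, 25.4 and 17.0 RPKM against 49.8, 57.5 and 56.3 (difference -2.10, SE 0.19). Ascl2, expressed from the maternal copy in the placenta, was the member with a positive difference (2.46). Its mean was 3.83 RPKM in knockout bodies, above the 0.562 of DNMT WT.

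Hox genes, the homeobox clusters that give position along the body axis, did not come on as in the parental line. Of 31 tested, 4 rose and 9 fell in DNMT KO (median -0.41), and 15 rose and 3 fell in DNMT WT (median 0.81), with 18 negative differences and 0 positive. Voom called 8 rises and 17 falls in DNMT KO. Hoxb9 fell from 3.26, 2.71 and 2.83 to 0.175, 0.313 and 0.102 RPKM in DNMT KO and fell in DNMT WT too (difference -0.42, SE 0.27). Hoxb2 rose to 2.20, 1.62 and 2.1 RPKM, against 8.60, 8.94 and 8.36 in DNMT WT (difference -1.83, SE 0.14). Hoxc8 had a change of -0.11 in DNMT KO and of 2.87 in DNMT WT.

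Genes of general cell state gave smaller counts, some near the 16.8% and 6.92% of all genes. Of 18 cell cycle genes 3 rose and 2 fell in DNMT KO, of 14 p53 targets 3 rose and 1 fell, of 13 interferon response genes 5 rose and 1 fell, and of 12 housekeeping genes 1 rose. That gene was Pgk1, a glycolytic enzyme, which went from 75.6, 77.8 and 77.9 to 427, 433 and 425 RPKM and rose as much in DNMT WT (difference -0.26). Of 16 further genes of the methylation machinery, 2 rose and 2 fell. Of 10 mitochondrially encoded genes 5 rose, and 2 after centring.

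The largest rises and falls across all genes, outside the lists, named further markers of the knockout's course. Trh, the thyrotropin-releasing hormone, rose from 3.18, 2.08 and 4.78 to 237, 236 and 257 RPKM, against 45.9, 43.3 and 39.6 in DNMT WT (difference 3.15, SE 0.28). Slc16a3, a lactate exporter, rose by 6.42, Igfbp4, which binds insulin-like growth factors, by 5.92, and Bnip3, a mitophagy receptor, by 5.80. Car4, a carbonic anhydrase, had no ESC read and reached 28.9, 30.7 and 36.3 RPKM, at least 204-fold above the floor. Pramel6, a gene of naive ESCs, went from 35.1, 33.9 and 35.9 RPKM to at most 1 read in a body library of either line (difference -0.02, SE 0.15). Crxos, a homeobox gene of the early embryo, fell from 50, 51.4 and 50.6 to 0.0916, 0.212 and 0.207 RPKM. Aqp3, a water and glycerol channel, fell by 5.20, with a difference of 0.18. All of the 15 largest falls were called in DNMT WT as well, and 1 of them had a difference called. That was Calcoco2, an autophagy receptor, which fell from 158, 160.1 and 169 to 7.13, 7.19 and 7.48 RPKM but to 0.0517 to 0.133 in DNMT WT (difference 3.94, SE 0.18, or 0.96 with TET WT in place of DNMT WT, which missed the criterion). Besides the falls named so far these were Ptprtos (-4.99), Elobl (-4.80), Cdx1 (-4.67), Ppp1r14d (-4.59), Serpinb1a (-4.50), Il34 (-4.39), Mras (-4.34), Cnga4 (-4.10), Spic (-3.95), Pramel7 (-3.95) and Myh13 (-3.93). Cdx1, a homeobox gene of the posterior embryo, went from a mean of 36.0 to 0.934 RPKM, and Spic, an Ets factor, from 13.7 to 0.426. Of the 15 largest rises, all were called in DNMT WT too, with 7 negative differences and 1 positive.

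The days between showed when the lines parted. Mean Pou5f1 in DNMT KO was 457, 411, 351, 305 and 263 RPKM at days 0, 2, 4, 6 and 8, a slow decline, while DNMT WT held 427 at day 4 and dropped to 61.3 at day 6 and 17.8 at day 8. Nanog fell early in both lines, to 60.5 RPKM in DNMT KO and 48.4 in DNMT WT at day 2, and was 115 and 128 at day 4. From there it stood at 119 and 129.6 RPKM in DNMT KO on days 6 and 8, and at 16.2 and 4.17 in DNMT WT. Dazl dipped in DNMT KO from 114 RPKM at day 0 to 7.58 at day 4 and was 13.1 and 21.3 at days 6 and 8, while Sohlh2 dipped to 6.59 at day 2 and was back at 34.8 at day 8. In DNMT WT Dazl was at 40.9, 2.71 and 0.592 RPKM on days 0, 2 and 4, already below the knockout, and at day 8 the pair stood at 0.124 and 0.0779 RPKM.

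Most streak genes reached lower peaks in the knockout: the highest mean over days 0 to 8 was lower in DNMT KO than in DNMT WT for 12 of 14. The exceptions were Cer1, at 4.35 RPKM on day 6 against 3.63 on day 8 in DNMT WT, and Gsc, whose highest means were 13.97 at day 0 in DNMT KO and 11.9 at day 4 in DNMT WT. The same share was not computed for all genes tested. Some of the 12 were low: Msgn1, Tbx6 and Mesp2 had highest means of 0.516, 0.443 and 0.448 RPKM in DNMT KO. In DNMT WT these were 1.44, 2.01 and 2.25 RPKM. Mesp1, a factor of nascent mesoderm, had its highest mean at day 6 in both lines, 2.32 RPKM in DNMT KO and 41.6 in DNMT WT. Eomes was highest at day 6 in DNMT KO (19.1 RPKM) and at day 4 in DNMT WT (61.9). Hand1 was at 3.55 RPKM on day 6 and 31.7 on day 8 in DNMT KO, against 358 and 244 in DNMT WT. Cdh5 was at 6.56 RPKM in DNMT KO on day 4, when DNMT WT had 0.208, and at 5.53 and 30.6 on days 6 and 8 against 10.3 and 35.3. Hbb-bh1 was at 45.6 RPKM on day 4, 8.86 on day 6 and 59.8 on day 8 in DNMT KO, and at 5.77, 150 and 3060 in DNMT WT. These course values are means of 2 or 3 libraries, described without a test.

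**Figure D4:**
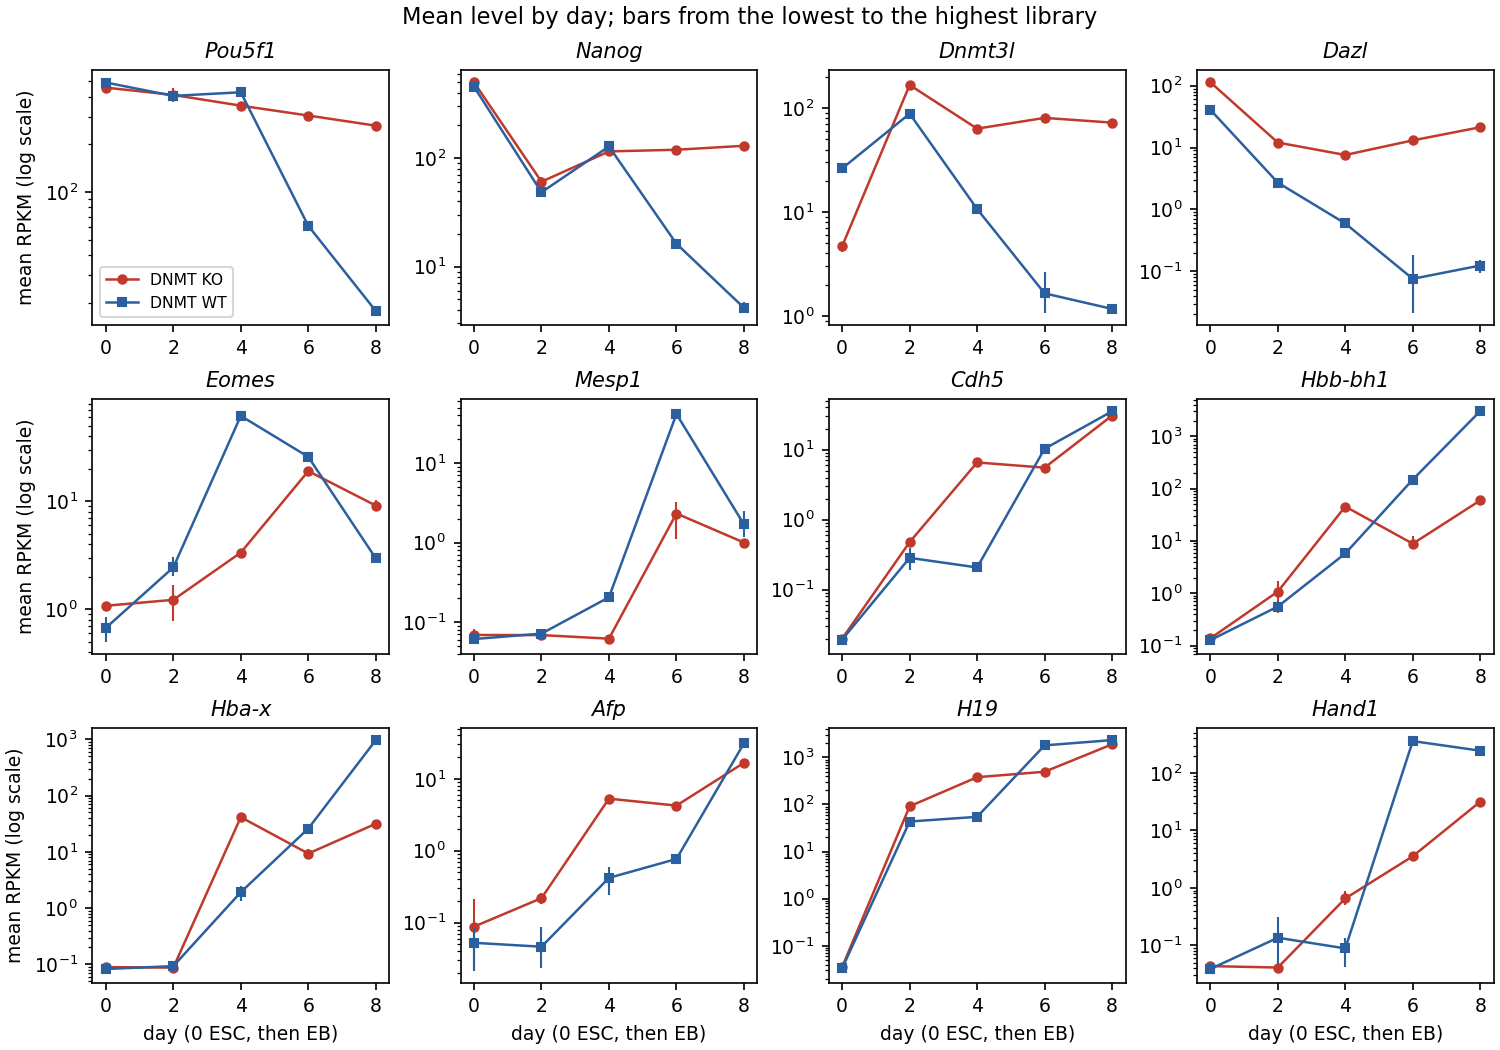
Mean RPKM on a log axis at days 0, 2, 4, 6 and 8 for 12 genes, 1 panel each, with DNMT KO and DNMT WT as lines and bars from the lowest to the highest library. Pou5f1 and Nanog part after day 4, Dazl is higher in DNMT KO at every day, and Hbb-bh1 in DNMT KO is higher at day 4 than at day 6.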

How the data were processed

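The authors deposited log2 RPKM values per gene and library with GRCm38 coordinates. Libraries were stranded and oligo-dT selected, per the labels' protocols. Trimming used Trim Galore 0.6.1 and cutadapt 1.18 and alignment HISAT2 2.1.0, per the submitters' processing notes. Which tool counted reads, on which annotation, is not given in the sources used here.

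Whole reads were recovered from the values with merged GENCODE M21 exon lengths (96.9% of values up to 20 reads were whole within 0.1). With these the depth of each library was obtained. Values were fitted as log2(RPKM + 0.5) with limma 3.58.1 (R 4.3.3, trend and robust settings) on the 23 libraries of all 4 genotypes at both conditions, and adjusted by Benjamini-Hochberg over 15267 genes. The members and lists were chosen with earlier results of these data known. Named genes are the targeted genes, the 15 largest rises and falls in DNMT KO and the 10 largest differences each way (called, at least 5 RPKM, no clone names), up to 4 changes and 2 differences per list, and cell type markers. Other list members were named after their values were seen (Hormad1, Taf7l, Nfe2, Trf, Myl7, Mesp1, Ascl2, Cdx2, Gata2, Etv2, Csf1r, Vav1, Rac2, Mpo, Zfpm1, Brdt, Sycp2, Tdrd1, Tex101, Sgce, Meg3, Nes, Olig2). The text describes most of the 160 genes so named and leaves out others, 1 of which is not reported here. Lists are described by counts without a set test, and fits were tested on simulated data. Counting intervals cover counting error only.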

Additional observations from a re-analysis of the deposited data

Results flagged for a closer look

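The change from ESC D0 to EB D8 was tested for a difference between DNMT KO and DNMT WT (KO change minus WT change, log2 scale, limma). Of the 160 genes named by rule 100 had one, and the 52 that the rule names for their difference are given here. Among all genes 20.5% had one.

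Positive differences, where the knockout fell less or rose more, were seen in pluripotency genes: Dppa5a 5.64, Zfp42 5.54, Utf1 5.40, Esrrb 5.25, Dppa2 5.15 and Foxd3 4.45. Among genes of the methylation system they were Dnmt3l 7.83, Dppa3 4.28, which encodes a maternal factor that limits methylation, and Dnmt3b 1.76. Dnmt3b is a targeted gene, and its mean at EB D8 was 12.6 RPKM in DNMT KO, below the 24.3 of DNMT WT. Among germ cell and testis genes they were Rbmxl2 5.71, Tuba3a 5.60, Rpl39l 5.47, Sohlh2 5.29 and Rpl10l 5.03, beside Rhox5 3.15 and Rhox1 2.68. Mymx, a micropeptide of muscle cell fusion, differed by 5.56. Its level was 13, 15.1 and 12.7 RPKM in knockout ESCs and 22.1, 24.4 and 25.1 in the bodies, against 0.0631 to 0.245 in DNMT WT bodies. In the 2-cell-like set they were Zscan4d 3.21 and Usp17le 3.19. The neuronal genes Tubb3 and Stmn2 differed by 3.08 and 2.85. Stmn2, a tubulin-binding protein, was at 14.8 to 16.2 RPKM in knockout ESCs and 14.4 to 17.3 in the bodies, which overlap. Further values were Tpbpa 2.62, the cyclin Ccne1 1.94, Ddx58, the RNA sensor RIG-I, 1.76, the cyclin Ccnd1 1.74, Hprt 1.09, mt-Co1 1.04 and Eomes 1.02.

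Negative differences, where the change in the knockout was the lower one, were seen in globin and blood genes: Hbb-bh1 -5.69, Hba-a2 -5.64, Hba-a1 -5.25, Hba-x -4.93, Gfi1b -2.17, Tek -1.97 and Lmo2 -1.73. In endoderm genes and beside them they were Nepn -6.96, Rbp4 -4.55, Pyy -4.48, Ttr -4.26 and Cer1 -1.38. In imprinted genes they were Igf2 -5.18 and Dlk1 -4.66. In mesenchyme and heart they were Col3a1 -5.16, Postn -4.43, a matrix protein, Myh7 -4.30, Actc1 -4.27 and Hand1 -2.93. The Hox genes Hoxc8 and Hoxd9 differed by -2.98 and -2.56. Further values were Usp18 -1.51, an interferon-induced protease, Fas -1.37, a death receptor, and B2m -1.17, the light chain of MHC class I.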

How the results depend on the processing

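The count of falls in DNMT KO was 1057, and 1591 with each library centred on its median. All other counts over all genes kept within 1.5 times of their values under the alternatives run. Counts within lists moved further: beside those given above, rises of interferon genes in DNMT KO went from 5 to 8 by voom, falls of Hox genes from 9 to 15 with quantile normalization or a pseudocount of 0.1 RPKM and to 5 with 1 RPKM, and rises of 2-cell-like genes from 6 to 10 and 2 with these pseudocounts. By voom, negative differences went from 14 to 10 for cardiac, 16 to 13 for erythroid and 13 to 10 for endoderm genes. They went from 8 to 6 for mesenchymal and for blood lineage genes, and from 18 to 19 for Hox genes. Without 1 library, the germline rises went from 1 to 2 (DNMT KO EB D8 replicate 2, ESC D0 replicate 1 or 2), the imprinted fall was lost (EB D8 replicate 1 or ESC D0 replicate 2), interferon falls went from 1 to 2 (EB D8 replicate 2 or 3, ESC D0 replicate 1), Hox falls in DNMT WT from 3 to 5 (DNMT WT EB D8 replicate 3 or ESC D0 replicate 1, which also moved the median from 0.81 to 0.53), and basement membrane differences from 0 to as many as 2 (DNMT KO ESC D0 replicate 3 or DNMT WT EB D8 replicate 2). With the replicate number as a block (replicate block), 2571 genes rose and 1057 fell in DNMT KO, and the difference was positive for 1657 and negative for 1487. Same-numbered knockout libraries did not deviate together (correlations of -0.015, -0.003 and 0.033). A shared culture could leave no such mark, so whether the numbers pair them is not known.

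With TET WT in place of DNMT WT, the difference was positive for 1907 genes and negative for 1747. Of the 52 named differences 46 kept their sign and call, 3 fell under the criterion (Dppa3 0.99, Rhox1 0.70, Usp18 -0.93) and 3 turned, namely Cer1 (0.76), Rhox5 (-1.30) and mt-Co1 (-0.26). The cause was not tested. Of 160 named changes in DNMT KO, none turned under centring, quantile normalization, other pseudocounts or filters, voom, the block or any left-out library. A pseudocount of 1 RPKM ended 13 calls, quantile normalization 13 and centring 8. Voom ended 8 of the 52 differences (Actc1, Cer1, Col3a1, Eomes, Hand1, Lmo2, Postn, Usp18). Of 48 further named genes with a difference called, voom did not call 13 (Hand2, Hbb-y, Hoxb2, Fgf5 and Gata4 among them). With TET WT in place of DNMT WT 7 were not called, Dazl, Calcoco2 and Tfcp2l1 among them, and Cubn and Rhox13 (-2.21) turned. Beside Klf1, Pyy, Cer1 and Eomes, given above, calls ended for Bbc3 without DNMT KO EB D8 replicate 1 (0.99) or ESC D0 replicate 1 (0.96), and for mt-Co2 without EB D8 replicate 2 (0.98). The mt-Co1 difference lost its call without DNMT KO EB D8 replicate 1 (just under 1.0), ESC D0 replicate 2 (0.97) or DNMT WT ESC D0 replicate 1 (0.90). At 2 or 3 libraries a group, low genes such as those under 1 RPKM rest on few reads.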
